A study of Mus musculus with 18 samples.

Results

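Colon tissue of mice that lack both Lao1 and Il4i1 was compared with colon tissue of mice that lack Lao1 alone. The comparison used 12 of the 18 samples of the series. These were chosen by their labels as the 6 samples labelled DKO (Lao1-/- Il4i1-/-) and the 6 labelled LAO1KO (Lao1-/-), with 3 of each genotype under either treatment. All animals were germ-free C57BL/6J males aged 8 weeks, and each drank sterile water, plain or with dextran sulfate sodium (DSS) at 2.5% for 24 hours, before whole colon was taken for stranded mRNA sequencing. DSS is a sulfated polysaccharide that injures the colonic epithelium. Every animal in the comparison was labelled as carrying the Lao1 deletion, so the contrast asks what loss of Il4i1 adds on that background. The labels call the samples biological replicates and do not state which exons were deleted, how the alleles were made or whether littermates were used. The remaining 6 wild-type samples (WT) had neither deletion. They were left out of the main tests, entered only the alternative fit of all 18 libraries, and their values are given beside the others for some genes.

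Both genes encode L-amino acid oxidases, flavoenzymes that remove the amino group of amino acids and release a keto acid, ammonia and hydrogen peroxide. Il4i1 is secreted by macrophages, dendritic cells and B cells and prefers phenylalanine, tyrosine and tryptophan. Some products made from tryptophan can activate the aryl hydrocarbon receptor, a ligand-activated transcription factor of barrier tissues that induces Cyp1a1 and its own repressor Ahrr.

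The deposited table holds raw read counts for 45777 genes, with 26003174 to 36553193 counts in each of the 12 libraries. After a filter on low counts 18639 genes were tested. Values are given as CPM, counts scaled to library size and composition, and a log2 fold change is DKO against LAO1KO with its standard error (SE). Absorptive colonocyte markers summed to between 8100 and 17800 CPM and goblet cell markers to between 6750 and 13300 CPM, and every marker of these 2 cell types passed the filter. Under water the goblet sums did not overlap, at 7980 to 13000 CPM in LAO1KO and 6750 to 7760 CPM in DKO. Under DSS they did, at 8800 to 13300 CPM and 11300 to 13000 CPM. The colonocyte sums of the genotypes overlapped under both treatments. The LAO1KO water replicate A library stood apart from the other 11 on the first principal component, which held 27.1% of the variance. Transcripts of the mitochondrial genome took 15.7 ± 4.94% of the counts of LAO1KO and 17.6 ± 4.89% of those of DKO libraries (SD, n = 6), a difference within the spread (two-sided exact permutation test within treatments, p = 0.44, adjusted p = 0.66). In whole tissue, fewer cells of a type and less RNA per cell cannot be told apart.

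Il4i1 reads were nearly absent from DKO libraries. The table lists 2 overlapping models of the gene, Il4i1 at chr7:44836288-44840809 and Il4i1b at chr7:44816370-44840804 (RefSeq, GRCm38.p6), and their counts were added because reads can fall on either. LAO1KO libraries held 40, 26 and 50 such counts under water and 66, 47 and 12 under DSS. In DKO libraries the count was 0 in all 3 water libraries and in DSS replicates A and C, where it allows at most 0.0874 to 0.113 CPM, and it was 12 in DSS replicate B. The DKO and LAO1KO libraries did not overlap in CPM, although the highest DKO value, 0.375 CPM, lay close to the lowest LAO1KO value, 0.5 CPM. The mean was 1.29 ± 0.589 CPM in LAO1KO and 0.0625 ± 0.153 CPM in DKO (SD, n = 6), a difference of -1.23 CPM (two-sided exact permutation test within treatments, p = 0.005, the smallest that the 400 arrangements can give; adjusted p = 0.015 over 3 tests). Il4i1 was thus a rare transcript in this tissue even where the gene was intact, with 0.888 to 3.02 CPM in WT libraries. Il4i1b alone passed the filter, and its log2 fold change of -3.72 ± 0.99 did not pass the test across all genes (edgeR adjusted p = 0.311).

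Lao1, at chr4:118961967-118968910, had 0 to 10 counts in every one of the 12 libraries. It averaged 0.169 ± 0.135 CPM in LAO1KO and 0.174 ± 0.126 CPM in DKO (SD, n = 6), and the difference of 0.00561 CPM was within the spread (two-sided exact permutation test, p = 0.945, adjusted p = 0.945). Reads of Lao1 were found in 10 of the 12 libraries labelled as Lao1-/- and in 2 of the 6 WT libraries, which held at most 4 counts. The libraries labelled as lacking the gene thus held more of its reads, and these counts give no check of the Lao1 label.

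Removal of Il4i1 on the Lao1-deficient background was accompanied by differences in few genes by the main test, most of them on the chromosome that carries Il4i1. Over both treatments 43 genes differed, 22 higher and 21 lower in DKO (edgeR quasi-likelihood test, Benjamini-Hochberg adjusted p under 0.05), which is 0.231% of the genes tested. Among them 29 differed by more than 2-fold. DESeq2 called 133 genes, 55 higher and 78 lower, with 64.7% on chromosome 7, and limma voom called 83, 37 higher and 46 lower, with 79.5% on chromosome 7. At an unadjusted p under 0.05 there were 1500 genes, and the median log2 fold change of all genes was -0.01 with a median SE of 0.15. Chromosome 7 held 40 of the 43 genes, or 2.9% of its 1380 tested genes. The genes placed on other chromosomes gave 2 of 16769, or 0.0119%. These 2 were Hebp1 on chromosome 6 and the gene model Gm33272 on chromosome Y, and the remaining gene, LOC115486508, has no position in the annotation used. Chromosome 4, which carries Lao1, had none among 1146 tested genes (97 at an unadjusted p under 0.05).

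**Figure D1:**
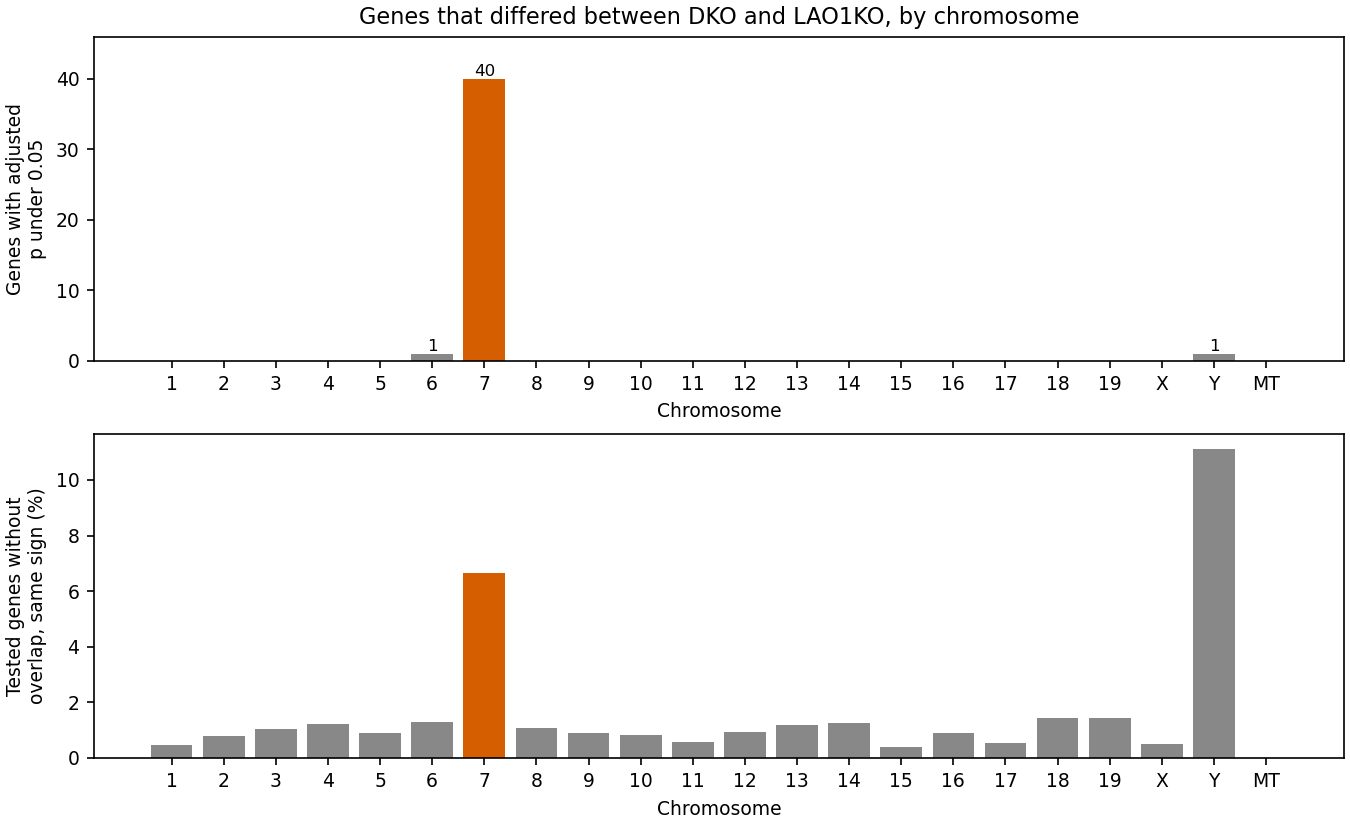
Upper bars, number of genes that passed an adjusted p of 0.05 over both treatments by chromosome. Lower bars, percent of tested genes on each chromosome whose DKO and LAO1KO libraries did not overlap under water or under DSS, in the same direction. Chromosome 7 holds 40 genes against 1 on chromosomes 6 and Y, and the high lower bar of chromosome Y is 1 of 9 tested genes.

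The genes on chromosome 7 were not confined to the surroundings of Il4i1. They ran from Zfp772, whose model starts at base 7202122, to Gm15506, whose model ends at base 98702928, a span of 91.5 Mb that begins 37.6 Mb before Il4i1 and ends 53.9 Mb after it. Within that span 40 of 769 tested genes passed (5.2%), and 195 (25.4%) had an unadjusted p under 0.05, against 7.29% of genes on other chromosomes. Of the 534 tested genes beyond the span on the distal side none passed, and 47 (8.8%) had an unadjusted p under 0.05. The 77 genes on the proximal side gave none that passed and 3 (3.9%) at that p. Since the span was drawn by the genes that passed, these shares are a description.

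The densest stretch was not at Il4i1 itself. Between 10 and 20 Mb 15 of 123 tested genes passed (12.2%), 8 higher and 7 lower, and 48 (39%) had an unadjusted p under 0.05. Within 1 Mb of Il4i1 3 of 100 tested genes passed, namely Tbc1d17, Ntn5 and the gene model 0610005C13Rik. Higher and lower genes alternated along the chromosome: Igsf23, Ceacam20 and Nlrp9b lie next to each other near 20 Mb, and Igsf23 was higher while Ceacam20 and Nlrp9b were lower in DKO. Loss of Il4i1, any difference in chromosome 7 DNA that came with the Il4i1 allele, and other differences between the mouse lines cannot be told apart in this design.

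**Figure D2:**
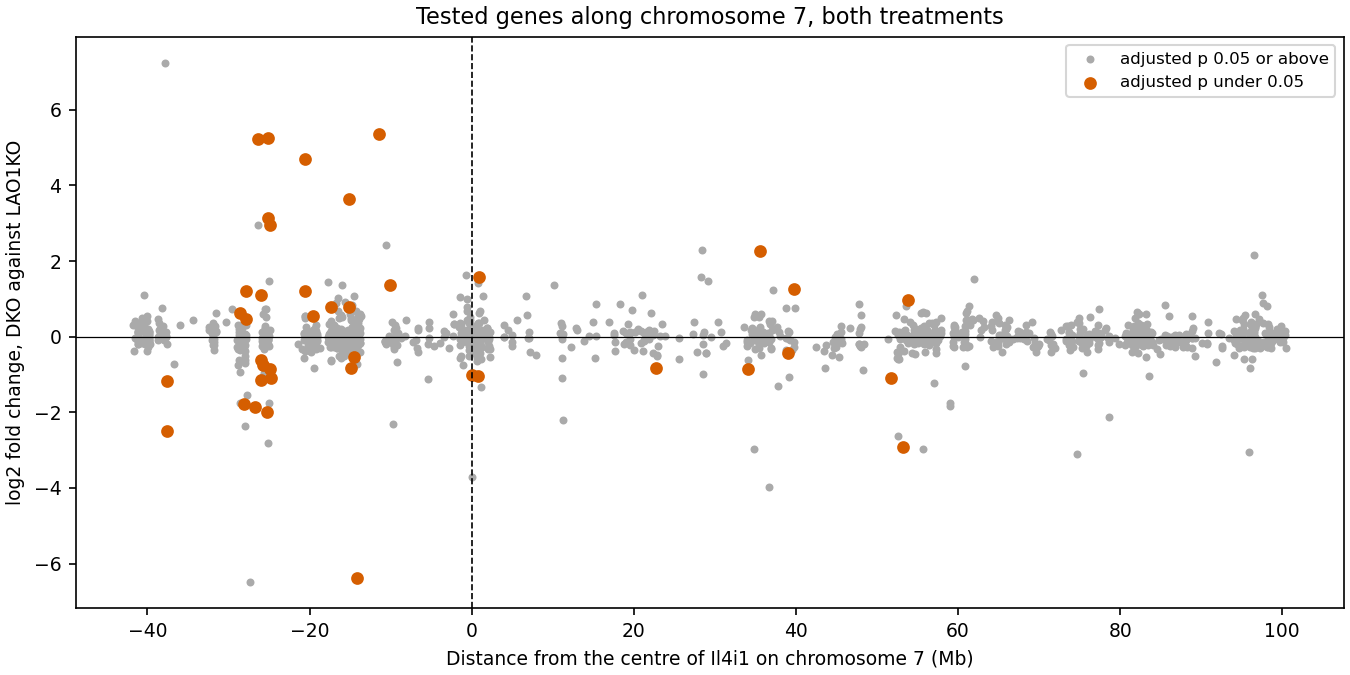
Log2 fold change of the 1380 tested genes of chromosome 7 (vertical axis) by distance from the centre of Il4i1 in Mb (horizontal axis), with genes that passed the test in orange. Genes that passed lie between 37.6 Mb before and 53.9 Mb after Il4i1, above and below 0, and none lies further along.

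Transport and breakdown of amino acids were represented by Slc1a5 and Fah. Slc1a5, at chr7:16781334-16798274, encodes a sodium-dependent exchanger of neutral amino acids such as glutamine. It stood at 166, 283 and 250 CPM in LAO1KO under water and at 294, 263 and 247 CPM under DSS. In DKO it stood at 64.5, 90.2 and 70.7 CPM under water and at 74.0, 64.8 and 76.6 CPM under DSS. All 6 DKO libraries lay below all 6 LAO1KO libraries, and the WT libraries, at 180 to 263 CPM, lay with LAO1KO. Slc1a5 fell 3.40-fold (log2 fold change -1.77 ± 0.13, edgeR adjusted p = 9.85e-06). It was the only 1 of 21 tested amino acid transporters in a list of that family to pass, and the median of the list was 0.05. Over all tested genes 0.231% passed, and of those on chromosome 7, where Slc1a5 lies, 2.9% passed.

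Fah, at chr7:84585159-84605942, encodes fumarylacetoacetase, the last enzyme of tyrosine breakdown. Its level was 7.75, 9.04 and 4.81 CPM in LAO1KO under water and 11.3, 5.72 and 10.2 CPM under DSS, against 16.4, 17.9 and 21.5 CPM and 21.1, 18.9 and 20.2 CPM in DKO. Every DKO library exceeded every LAO1KO and WT library, and the WT range was 6.18 to 7.11 CPM. Fah rose 2.38-fold (log2 fold change 1.25 ± 0.18, edgeR adjusted p = 0.00459), which made it the 1 passing gene of 17 tested enzymes of tryptophan, tyrosine and phenylalanine breakdown. The share passing was 0.231% over all tested genes and 2.9% over those of chromosome 7, where Fah lies.

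Igsf23, Apoc2 and Hddc3 had the largest rises among the passing genes that the naming rule allowed, and 6 genes outside it, 5 of them under 1 CPM, had larger fitted rises. Hddc3, at chr7:80343075-80346716, encodes an HD-domain phosphohydrolase. It was at 5.54, 6.86 and 7.34 CPM in LAO1KO under water and at 8.40, 8.31 and 6.71 CPM under DSS, and DKO had 37.6, 33.4 and 32.0 CPM under water and 36.5, 36.0 and 32.8 CPM under DSS. The genotypes did not overlap under either treatment, and DKO was 4.84-fold above LAO1KO (log2 fold change 2.28 ± 0.10, edgeR adjusted p = 4.03e-08), while WT libraries had 5.88 to 7.68 CPM. Hddc3 had the smallest adjusted p of all tested genes.

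Igsf23, at chr7:19937305-19953654, encodes a membrane protein of the immunoglobulin superfamily. LAO1KO libraries had 3.60, 2.57 and 2.96 CPM under water and 5.52, 3.47 and 3.46 CPM under DSS, whereas DKO libraries had 28.0, 34.1 and 30.9 CPM and 28.8, 22.3 and 22.2 CPM. The groups were far apart under both treatments, WT libraries had 1.78 to 4.84 CPM, and Igsf23 rose 7.70-fold (log2 fold change 2.95 ± 0.18, edgeR adjusted p = 1.68e-06). Apoc2, the apolipoprotein that serves as cofactor of lipoprotein lipase, lies at chr7:19671579-19677941. It had 2.33, 1.49 and 0.823 CPM in LAO1KO under water and 2.18, 1.03 and 1.75 CPM under DSS, against 20.3, 17.7 and 17.4 CPM and 8.15, 13.8 and 10.2 CPM in DKO. Its rise of 8.76-fold (log2 fold change 3.13 ± 0.27, edgeR adjusted p = 4.24e-05) is uncertain in its source, because the model Gm44805 overlaps it, passed as well, and can share its reads.

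Among passing genes above 1 CPM, a large fall was that of Myo7a, at chr7:98051054-98119522, an unconventional myosin best known from the hair bundles of the inner ear. It was at 5.28, 8.44 and 6.71 CPM in LAO1KO under water and at 9.21, 9.56 and 7.75 CPM under DSS. DKO had 1.14, 1.11 and 0.752 CPM under water and 0.740, 1.16 and 1.23 CPM under DSS, below all LAO1KO and WT libraries. Myo7a fell 7.58-fold (log2 fold change -2.92 ± 0.19, edgeR adjusted p = 2.33e-06). Vmn2r29, a vomeronasal pheromone receptor gene of a large family with similar sequences, fell 5.62-fold from 2.21 to 3.77 CPM in LAO1KO to 0.345 to 0.827 CPM in DKO, and its reads may be shared with related genes.

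**Figure D3:**
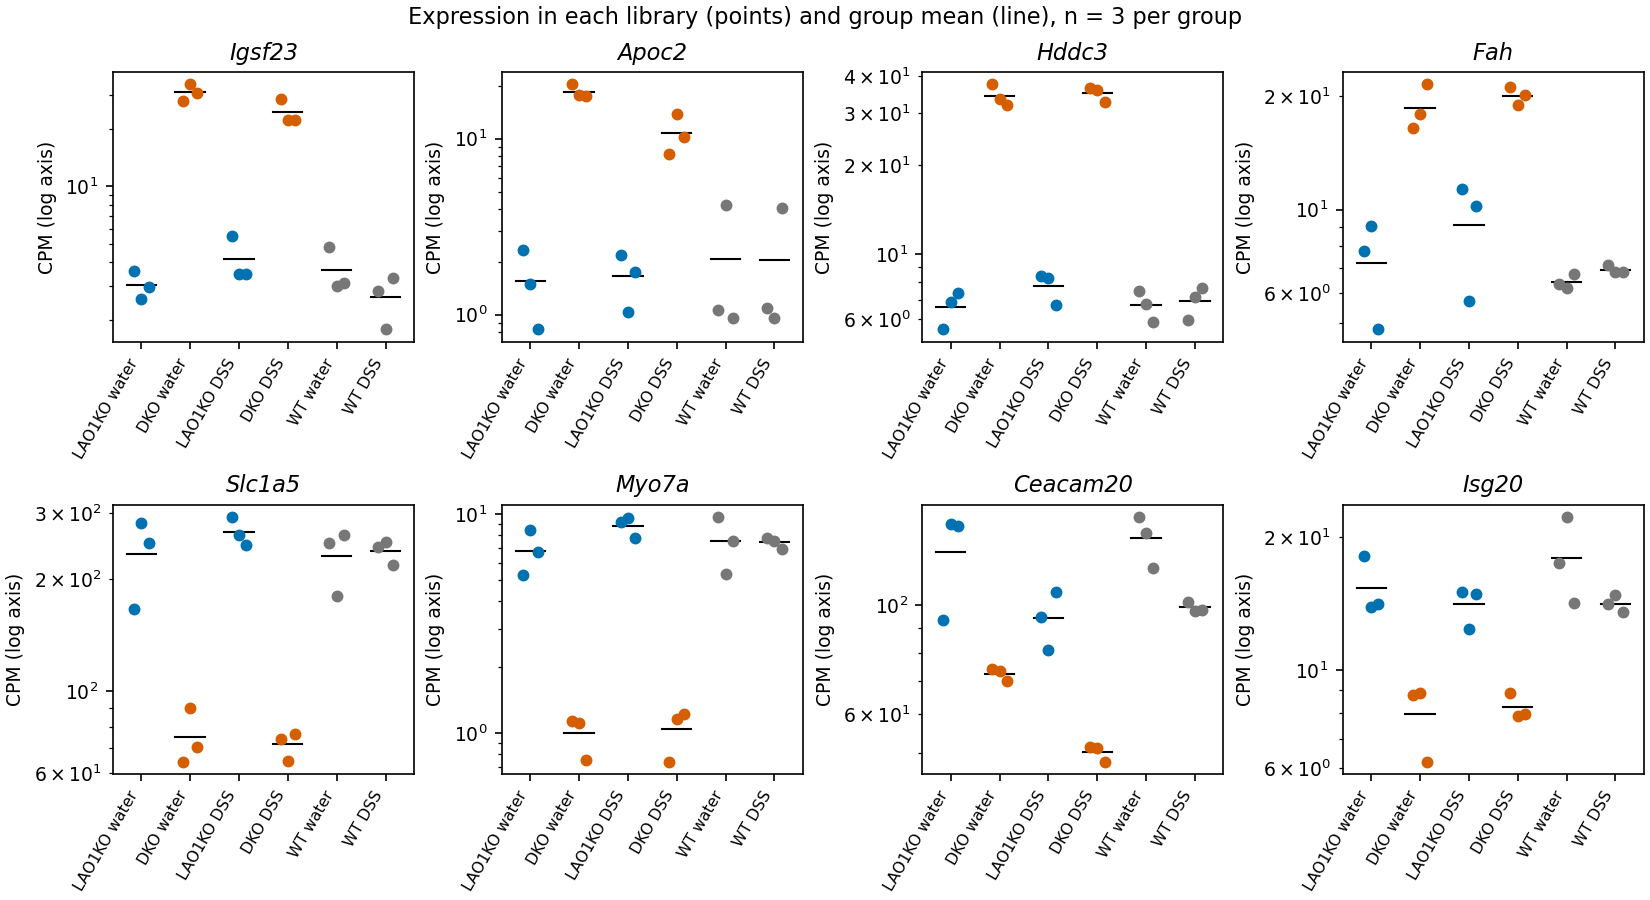
CPM on log axes of 8 genes in each library (points) with the group mean (line), for LAO1KO, DKO and WT under water and DSS, n = 3 per group. In all 8 panels the DKO points of a treatment lie apart from the LAO1KO and WT points of that treatment, above them for Igsf23, Apoc2, Hddc3 and Fah and below them for Slc1a5, Myo7a, Ceacam20 and Isg20.

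Genes of epithelial surface and immune functions were also among those that differed. Ceacam20, an adhesion molecule of the microvilli of intestinal epithelial cells, had 93.5, 146 and 145 CPM in LAO1KO under water and 94.7, 81.0 and 106 CPM under DSS. DKO libraries had 74.1, 73.3 and 70.0 CPM under water and 51.4, 51.1 and 47.9 CPM under DSS. The genotypes did not overlap within either treatment, and Ceacam20 fell 1.82-fold (log2 fold change -0.87 ± 0.11, edgeR adjusted p = 0.00213). It was the 1 gene of 18 tested absorptive colonocyte genes that passed in edgeR, beside 0.231% of all tested genes. The median of that list was -0.03. Slc26a3, a chloride and bicarbonate exchanger of the same list on chromosome 12, had -0.67 ± 0.15 (edgeR adjusted p = 0.136) and was called by DESeq2, by limma voom and by edgeR without LAO1KO water replicate A.

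Isg20, an RNA exonuclease induced by interferon, fell from 12.4 to 18.1 CPM over the LAO1KO libraries to 6.21 to 8.86 CPM over the DKO libraries, a 1.82-fold change (log2 fold change -0.86 ± 0.12, edgeR adjusted p = 0.00459). It was the 1 passing member of 22 tested type I interferon-stimulated genes, whose median was 0.10, beside 0.231% of all tested genes that passed. Nlrp9b, an innate sensor expressed in intestinal epithelium, fell 2.14-fold (log2 fold change -1.10 ± 0.15, edgeR adjusted p = 0.00402), from 50.9 to 99.4 CPM in LAO1KO to 24.6 to 49.3 CPM in DKO. WT libraries had 45.8 to 76.6 CPM of Nlrp9b, and WT water replicate B lay within the DKO range. Mill2, a relative of MHC class I, rose 2.13-fold, from 8.11 to 13.2 CPM to 18.6 to 24.1 CPM (log2 fold change 1.09 ± 0.11, edgeR adjusted p = 0.000217). Ceacam12, of the carcinoembryonic antigen family, fell 3.66-fold (log2 fold change -1.87 ± 0.27, edgeR adjusted p = 0.0052), and this call was not made when all 18 libraries were fitted together (edgeR adjusted p = 0.073). WT libraries had 0.39 to 2.79 CPM of Ceacam12 and overlapped the DKO range of 0.37 to 0.70 CPM, with WT water replicate B and WT DSS replicate C inside it.

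The other named genes have varied roles. Those that rose were Chst8, a sulfotransferase that modifies N-acetylgalactosamine (2.58-fold), Zfp61, a zinc finger protein (2.32-fold), Pnmal2, of the paraneoplastic Ma antigen family (2.30-fold), Blvrb, a biliverdin and flavin reductase (1.73-fold), Dhx34, an RNA helicase of nonsense-mediated decay (1.55-fold), Dedd2, a death effector domain protein (1.47-fold), and Ppp5c, a serine/threonine phosphatase (1.38-fold). Those that fell were Zfp772 (2.27-fold) and Zfp27 (1.77-fold), both zinc finger proteins, Ccdc61, a centrosomal protein (2.19-fold), Tenm4, a teneurin of the cell surface (2.14-fold), Lrrc28, a leucine-rich repeat protein (1.78-fold), and Qpctl, a Golgi glutaminyl cyclase (1.67-fold). Ccdc61 had 20.7 to 25.5 CPM in LAO1KO and 9.21 to 11.8 CPM in DKO. Of the 36 passing genes with a proper symbol 13 overlap another gene model in the annotation, among them Zfp61, Dedd2, Chst8 and Nlrp9b, and reads of such pairs may have been divided in either way. For the genes listed here with a fold change, adjusted p-values from edgeR ran from 9.85e-06 for Ccdc61 to 0.0425 for Dhx34.

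Next to Il4i1, Tbc1d17 fell and Ntn5 rose. Tbc1d17, at chr7:44840776-44849079, encodes a Rab GTPase-activating protein, and its model overlaps the ends of both Il4i1 models. It had 45.1, 24.7 and 25.6 CPM in LAO1KO under water and 37.0, 27.2 and 20.8 CPM under DSS, against 11.5, 16.1 and 18.1 CPM and 15.8, 13.7 and 13.8 CPM in DKO. All DKO values lay below all LAO1KO values, and the gene fell 2.02-fold (log2 fold change -1.02 ± 0.18, edgeR adjusted p = 0.0235). How reads were divided between Tbc1d17 and the Il4i1 models was not tested. Ntn5, of the netrin family, lies at chr7:45684022-45694556 and overlaps the model Sec1. It rose 3.02-fold (log2 fold change 1.59 ± 0.26, edgeR adjusted p = 0.0149), from 0.973 to 3.43 CPM in LAO1KO to 4.81 to 7.71 CPM in DKO. WT libraries had 0.121 to 1.33 CPM of Ntn5, and every LAO1KO library except water replicate A lay above that range.

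Hebp1, a haem-binding protein, was the only one of the 28 genes named for their change over both treatments that lies away from chromosome 7, at chr6:135137519-135168215. It had 4.45, 6.53 and 3.42 CPM in LAO1KO under water and 8.63, 6.55 and 8.17 CPM under DSS, and 1.66, 2.01 and 3.12 CPM and 2.81, 3.53 and 3.53 CPM in DKO. The genotypes did not overlap within a treatment, and the fall was 2.25-fold (log2 fold change -1.17 ± 0.19, edgeR adjusted p = 0.0177). WT libraries, at 2.37 to 5.12 CPM, overlapped both knockout groups, unlike those of Hddc3 or Slc1a5. The call rests on most libraries being present: it held in 4 of the 12 refits that left out 1 library, with an adjusted p of at most 0.0704 in the others. The gene model Gm33272 on chromosome Y rose 9.35-fold (log2 fold change 3.22 ± 0.40, edgeR adjusted p = 0.0023). Unlike Hebp1, it was called in all 12 of these refits.

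A few of the genes that passed were close to silent in 1 genotype, and those below were chosen after their values were seen. Psg28, a pregnancy-specific glycoprotein gene, had 0 to 2 counts in LAO1KO and 8 to 33 counts in DKO libraries. Scgb2b20, a secretoglobin gene, had 0 to 2 counts in LAO1KO and 8 to 33 counts in DKO, and Tescl, similar to tescalcin, had 0 to 3 and 14 to 37 counts. In the other direction 2200002J24Rik had 6 to 15 counts in LAO1KO and 0 in all 6 DKO libraries (limit 3 counts per library). WT libraries had 3 to 17 counts of 2200002J24Rik, 0 to 2 of Psg28, 0 to 9 of Scgb2b20 and no count of Tescl. The 9 counts of Scgb2b20 were in WT water replicate B and lay within the DKO range of counts. In CPM that library, at 0.296, lay just below the lowest DKO value, 0.301 in DKO water replicate C. All 4 lie on chromosome 7 and are of the 7 passing genes that stayed under 1 CPM in every group mean.

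The genotypes were also compared within each treatment, and the 2 differences were tested against each other. Tested within water alone, 11 genes passed (0.059% of those tested, 1011 at an unadjusted p under 0.05), and within DSS alone 7 genes passed (0.0376%, 643 at that p). The DSS count was unstable: it was 39 with DESeq2, 1406 with limma voom, 12 with all 18 libraries and 17 without LAO1KO water replicate A. The water count was 50 with DESeq2, 27 with limma voom and 7 without DKO water replicate C. The 7 genes that passed under DSS were Apoc2, Igsf23, Hddc3, Myo7a, Slc1a5, Vmn2r29 and Ccdc61, and all 7 passed under water too. Those that passed under water alone were Chst8, Mill2, Gm33272 and Gm40369. The test of the difference itself found 1 gene, Gm40369, or 0.00537% of those tested (298 at an unadjusted p under 0.05), and none when all 18 libraries were fitted together. Igsf23 had log2 fold changes of 3.35 ± 0.21 under water and 2.55 ± 0.21 under DSS, and the DSS value minus the water value, -0.80 ± 0.28, did not pass (unadjusted p = 0.014).

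Over both treatments, all 43 genes had DKO libraries that did not overlap with LAO1KO libraries within water and within DSS, in the same direction. Among all tested genes 250 (1.34%) had such a pattern, and 92 of these lie on chromosome 7. The rule that chose the 43 genes used the same libraries, so their count is a description.

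**Figure D4:**
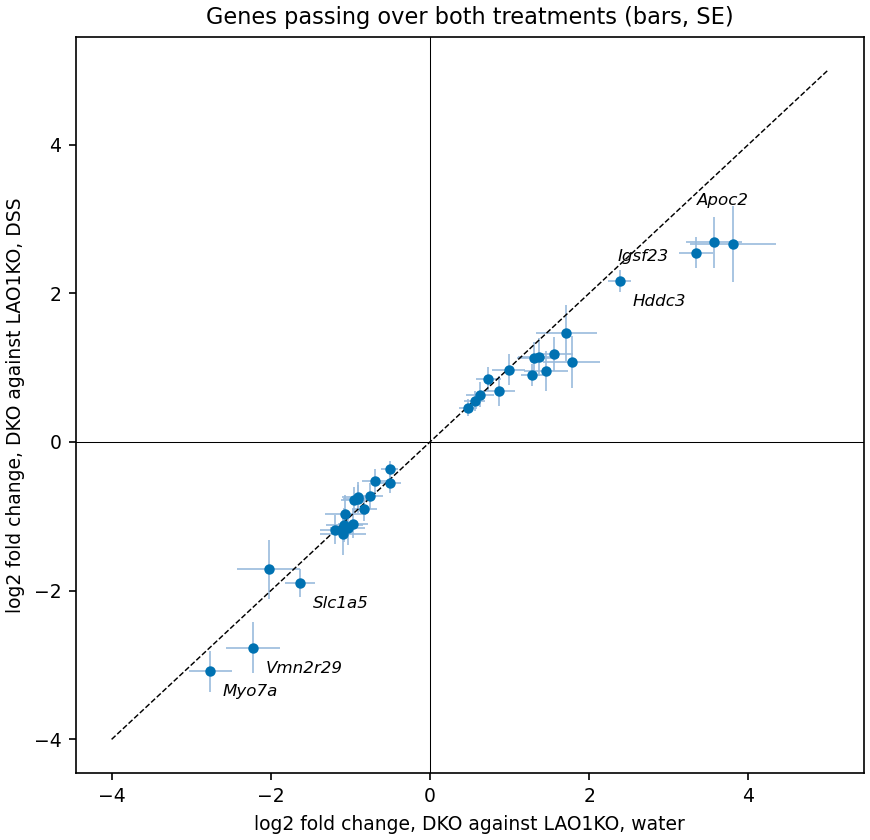
Log2 fold change of DKO against LAO1KO under water (horizontal axis) and under DSS (vertical axis) for the 36 passing genes that reached 1 CPM in a group mean, with SE bars and a dashed line where both are equal. The points lie along the line in the upper right and lower left, and none lies in the other two quadrants.

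Genes that respond to products of amino acid oxidation were examined as lists. None of 16 tested genes of the aryl hydrocarbon receptor pathway passed, and their median log2 fold change was 0.04 against -0.01 for all genes. The share passing over all tested genes was 0.231%, so none in a list of this size tells little about the pathway. Cyp1a1, the main target of the receptor, had a log2 fold change of -0.22 ± 0.41 and a 95% interval from -1.10 to 0.67. It was rare in both genotypes, with group means of 0.65 to 0.89 CPM, and those of Ahrr were 0.86 to 1.74 CPM. Levels this low limit what Cyp1a1 and Ahrr can show of receptor activity. Other members were more abundant. Ugt1a6a, at group means of 118 to 176 CPM, had 0.29 ± 0.12 (95% interval 0.03 to 0.55, edgeR adjusted p = 0.597). Ugt1a6b had 0.41 ± 0.26 (-0.15 to 0.97, edgeR adjusted p = 0.669). For both, the genotypes did not overlap under water and overlapped under DSS. Ugt1a7c, at 354 to 462 CPM, had -0.02 ± 0.10 (-0.23 to 0.20). Ahrr was at 0.49 ± 0.25 (95% interval -0.05 to 1.04, edgeR adjusted p = 0.628) and Ahr itself at 0.17 ± 0.11 (-0.07 to 0.41). The tryptophan-degrading enzyme Ido1 had the smallest p of the list with 0.54 ± 0.20, and its adjusted p was 0.571. Ido1 stood at 11.8 to 12.3 CPM in LAO1KO and 12.6 to 27.7 CPM in DKO libraries under water, which did not overlap, and at 13.3 to 26.7 CPM and 23.2 to 29.4 CPM under DSS, which did.

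The promoters of 4 genes are shown to set Hddc3 and Fah, which rose, beside the receptor targets Cyp1a1 and Ahrr, which did not pass. Each is 250 bases of the promoter listed for the gene, 5′ to 3′ along the gene (RefSeq, GRCm38.p6). Those of Fah and Ahrr lie directly before the annotated gene model. That of Hddc3 runs past the start of its model at base 80343075. Capitals mark GCGTG on either strand, the core of the element bound by the aryl hydrocarbon receptor, and matches that overlap form 1 run. They lie at chr7:80342887-80343136 on the plus strand for Hddc3, chr7:84605943-84606192 on the minus strand for Fah, chr9:57697363-57697612 on the plus strand for Cyp1a1 and chr13:74292332-74292581 on the minus strand for Ahrr.
Hddc3: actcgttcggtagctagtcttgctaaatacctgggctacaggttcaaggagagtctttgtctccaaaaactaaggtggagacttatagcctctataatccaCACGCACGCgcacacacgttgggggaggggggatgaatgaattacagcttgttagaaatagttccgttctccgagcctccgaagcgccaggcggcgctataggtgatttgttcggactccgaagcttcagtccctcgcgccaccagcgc
Fah: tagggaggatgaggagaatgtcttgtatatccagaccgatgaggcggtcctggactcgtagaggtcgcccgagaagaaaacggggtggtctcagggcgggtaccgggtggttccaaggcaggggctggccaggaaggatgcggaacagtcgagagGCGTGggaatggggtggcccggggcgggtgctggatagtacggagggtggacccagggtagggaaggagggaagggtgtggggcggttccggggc
Cyp1a1: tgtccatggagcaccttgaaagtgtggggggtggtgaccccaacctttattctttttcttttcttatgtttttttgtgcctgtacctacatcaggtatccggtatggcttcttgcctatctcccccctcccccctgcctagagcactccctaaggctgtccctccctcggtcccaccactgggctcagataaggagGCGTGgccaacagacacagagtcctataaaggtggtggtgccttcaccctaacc
Ahrr: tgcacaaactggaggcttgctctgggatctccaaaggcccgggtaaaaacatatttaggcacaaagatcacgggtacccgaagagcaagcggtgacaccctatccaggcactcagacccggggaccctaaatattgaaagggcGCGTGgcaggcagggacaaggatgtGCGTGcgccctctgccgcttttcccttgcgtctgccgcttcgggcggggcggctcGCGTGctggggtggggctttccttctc
Hddc3 has 2 matches, Fah 1, Cyp1a1 1 and Ahrr 3. The listed promoters of Apoc2 and Igsf23, which rose more than Hddc3 and Fah, have 0 matches and are not shown. The 4 shown were picked and do not stand for the passing genes. The motif was found in 15 of the 37 passing genes with a promoter in the table (40.5%), in 5584 of 13454 tested genes (41.5%) and in 7 of 11 genes of the receptor pathway (63.6%). The share among passing genes was thus near that of all genes. A match is a sequence feature and not evidence of binding.

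Hydrogen peroxide is the other product of these oxidases, and none of 24 tested genes of the Nrf2 pathway and of peroxide removal passed, with a median log2 fold change of -0.13. Beside the 0.231% of all tested genes that passed, this count too tells little about the pathway. The smallest p belonged to Prdx6, a peroxiredoxin, with -0.49 ± 0.14 (95% interval -0.79 to -0.19, edgeR adjusted p = 0.389) and 154 to 326 CPM in LAO1KO against 133 to 191 CPM in DKO. Hmox1, haem oxygenase, had -0.50 ± 0.22 (adjusted p = 0.608) and Gpx4, a lipid peroxidase, -0.31 ± 0.11 (adjusted p = 0.512). Among 16 tested amino acid and amine oxidases, which include Il4i1b, none passed. Apart from Il4i1b their smallest p-values were those of Hao2, a hydroxyacid oxidase (0.28 ± 0.10, adjusted p = 0.570), Loxl3 (0.33 ± 0.14, adjusted p = 0.606) and Loxl2 (-0.30 ± 0.14, adjusted p = 0.622), the last pair being lysyl oxidases of the matrix. Of the enzymes that act before Fah in tyrosine breakdown, Gstz1 had -0.34 ± 0.12 (adjusted p = 0.550) and Hpd 0.03 ± 0.15 (adjusted p = 0.957).

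**Figure D5:**
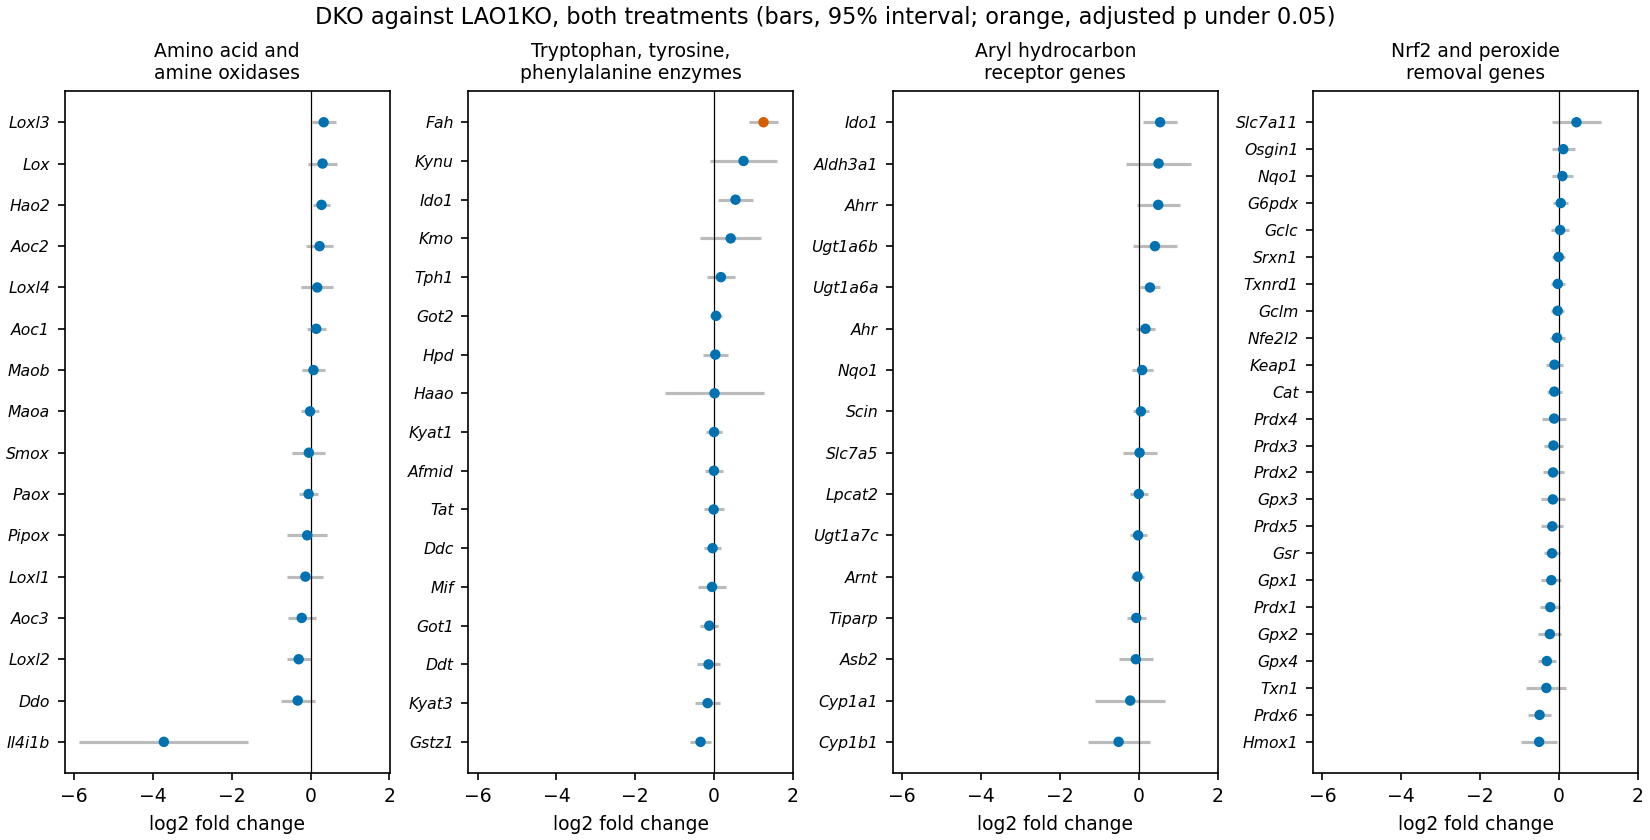
Log2 fold change of DKO against LAO1KO over both treatments (points) with 95% intervals (bars) for the tested members of 4 gene lists. Fah is the only gene shown in orange, which marks an adjusted p under 0.05, and Il4i1b has the lowest point and the widest interval.

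Across all 57 gene lists, which covered 818 tested genes of epithelial, immune, stromal and metabolic functions, 4 genes passed in edgeR: Slc1a5, Fah, Isg20 and Ceacam20. Over all tested genes 43 of 18639 passed (0.231%), so whether a short list holds a passing gene tells little about that list. The 4 passing list genes all lie on chromosome 7. This does not hold for the other tools: DESeq2 called 5 list members on other chromosomes (Hba-a1, Hba-a2, Jund, Ltc4s and Slc26a3), and limma voom called 5 (Hba-a1, Hba-a2, Jund, Reg3b and Slc26a3). No member passed among 16 macrophage genes (median -0.02), 14 B cell genes (median -0.21) and 13 T cell genes (median 0.32). At an unadjusted p under 0.05 there were 4 T cell genes, 0 macrophage genes and 0 B cell genes. Macrophages and B cells are known sources of Il4i1. The summed macrophage markers overlapped between genotypes, at 43.3 to 64.8 CPM in LAO1KO and 41.7 to 57.1 CPM in DKO under water, and at 39.7 to 68 CPM and 46.2 to 54 CPM under DSS.

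Genes of fat, blood, muscle and nerve had medians away from 0 with no member passing in edgeR. The 13 adipocyte genes had a median of -2.38, with 8 at an unadjusted p under 0.05, and the 8 red-cell genes a median of -1.56, with 6 at that p. Over all tested genes 1500 of 18639 were at that p. Hba-a1 and Hba-a2, which encode alpha globin, were called by DESeq2 and limma voom, and Alas2, the haem synthesis enzyme of red-cell precursors, by edgeR without LAO1KO DSS replicate B. The 18 enteric neuron and glia genes had a median of 0.37 and all lay above 0 (0.20 to 0.59), and the 14 smooth muscle genes had a median of -0.29 (-0.48 to 0.11). None of the genes in these last lists had an unadjusted p under 0.05. The 4 defining adipocyte markers summed to 11.2 to 103 CPM in LAO1KO and 14 to 20.7 CPM in DKO under water, and to 18.1 to 249 CPM and 6.93 to 45.3 CPM under DSS. These ranges overlap, the high sums are of LAO1KO libraries, none of the 4 markers was at 0 throughout, and their part in the differences above was not tested.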

How the data were processed

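Colon mRNA of 12 of 18 mice was used. The authors deposited raw counts per gene in 1 table. Per the submitters' processing notes, the tools were HISAT2 2.1.0 and StringTie 2.1.3b, with Trimmomatic 0.38 and FastQC 0.11.7 for the reads, and the builds GRCm38 and mm10. How strand, multiply mapped reads and overlapping genes were counted is not given in the sources used here, so genes with overlapping models or close relatives are uncertain. The members, gene lists and tests were chosen with earlier results of these data known.

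From the counts, edgeR 4.0.16 in R 4.3.3 was run on the 12 libraries, with filterByExpr, TMM scaling, robust quasi-likelihood fits and Benjamini-Hochberg adjustment over all 18639 tested genes (threshold 0.05). The model was treatment plus genotype, and 1 mean per group for single treatments and their interaction. The SE was derived from the fold change and the F statistic. Intervals (95%) use the fit's degrees of freedom. WT libraries were scaled to the same reference and entered only the fit of all 18. The code was tested on simulated data. Depth was 26003174 to 36553193 counts per library, and limits from a count of 0 (3 counts) cover counting error only. Il4i1, Lao1 and the mitochondrial share were compared by two-sided exact permutation within treatments. P-values describe the spread between samples labelled as biological replicates.

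Named were Il4i1, Il4i1b and Lao1, the passing genes with the largest change, at most 15 in each direction (up to 5 each for single treatments and the interaction) that reached 1 CPM and did not overlap between genotypes, passing genes within 1 Mb of Il4i1 or Lao1, up to 4 passing members of each list, and up to 4 members with the smallest p of the oxidase-related lists. Gene models without a proper symbol were counted, and the few named here were chosen after their values were seen. So were Ahr, Alas2, Cyp1a1, Hba-a1, Hba-a2, Hpd, Jund, Ltc4s, Psg28, Reg3b, Scgb2b20, Slc26a3, Tescl and Ugt1a7c. Positions and promoters came from RefSeq GRCm38.p6, which placed 18149 tested genes. Alternatives were DESeq2 1.42.0, limma 3.58.1 (voom with library weights), all 18 libraries, RLE scaling, library size without mitochondrial mRNAs, no count filter, a replicate block and leaving out each library.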

Additional observations from a re-analysis of the deposited data

Results flagged for a closer look

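The gene model Gm40369 on chromosome 6 differed between treatments in its response to genotype, by the interaction test. Its log2 fold change was -4.26 ± 0.35 under water and -0.05 ± 0.25 under DSS, a difference of 4.21 ± 0.44 (edgeR adjusted p = 0.00512), with 51 to 53 counts in LAO1KO and 2 to 3 counts in DKO libraries under water and 38 to 62 counts in all 6 DSS libraries. WT replicate C under water and WT replicate A under DSS also held 2 counts each, while the other 4 WT libraries held 31 to 52. The gene was named after its values were seen, and it was not called in the fit of all 18 libraries.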

How the results depend on the processing

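Over both treatments the count of 43 genes became 133 with DESeq2 (86 on chromosome 7) and 83 with limma voom (66 on chromosome 7), and all 43 genes remained called by both. It was 43 to 46 under the other alternatives and 29 to 57 when 1 library was left out, with 78.9 to 97.2% of the calls on chromosome 7. The count for water was 50 with DESeq2, 27 with voom and 7 to 13 with 1 library left out (7 without DKO water replicate C). For DSS it was 39 with DESeq2, 1406 with voom, 12 with all 18 libraries and 6 to 17 with 1 library left out (17 without LAO1KO water replicate A). The interaction count was 3 with DESeq2, 5 with voom, 0 with all 18 libraries and 1 to 4 with 1 library left out (4 without LAO1KO water replicate A, 2 without DKO water replicate B). The cause of these shifts was not tested. The Lao1 difference ran from -0.034 to 0.0471 CPM when 1 library was left out, the Il4i1 difference from -1.46 to -1.1 CPM.

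With the replicate letter as a block 46 genes were called, of which 41 were among the 43. Deviations from group means correlated at -0.309 to 0.318 over 18 same-letter pairs (median 0.0636), and 6 of these exceeded 0.1. Over 36 pairs of different letters they correlated at -0.304 to 0.387 (median -0.0747), and 8 exceeded 0.1. These values do not settle whether the letters pair the samples.

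Of the 28 genes named from the comparison over both treatments none changed direction, and 19 were called in all 12 fits without 1 library. The others were called in 11 of 12 (Qpctl), 9 (Dedd2), 8 (Ntn5), 7 (Pnmal2 and Ppp5c), 6 (Tbc1d17), 4 (Hebp1 and Zfp27) and 2 (Dhx34), with an edgeR adjusted p of at most 0.143 where lost. With all 18 libraries Ceacam12 (adjusted p = 0.073) and Ntn5 (adjusted p = 0.0546) were not called. Depth limits the targeted genes, with at most 66 counts of Il4i1 and 10 of Lao1 in a library.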
